A study of Mus musculus with 13 samples.

Results

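The interferon-γ-induced GTPase genes and their transcription factor form a set of 8 genes of the 24417 named genes in both count tables: the guanylate-binding proteins Gbp2, Gbp3, Gbp5 and Gbp7, the immunity-related GTPases Irgm1, Igtp and Iigp1, and Irf1. A gene was taken as a member where the name of its row was one of these 8 symbols. Of the 8 genes, 5 had reads and 3 were listed at 0 in all 13 libraries. RNA-seq was performed on T cells sorted from spleen and lymph nodes of C57BL/6 mice in 2 experiments, one on males and one on females. The male experiment held control Treg cells (n = 3) from healthy mice with the genotype Foxp3DTR-GFP/y Cd4creERT2, rescued Treg cells (n = 3) from Foxp3LSL/y Cd4creERT2 mice and Treg “wannabes” (n = 2) from sick Foxp3LSL/y Cd4wt mice. All males received 4-hydroxytamoxifen on postnatal day 14 and were analysed on day 21. The female experiment held resting Treg “wannabes” (n = 3) from Foxp3LSL/WT Cd4wt mice and activated Treg “wannabes” (n = 2) from Foxp3LSL/DTR Cd4wt mice, 9 to 11 weeks old. All females were given the toxin of diphtheria on days 1, 3, 5 and 7 before analysis.

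Every group carried an engineered Foxp3 allele. In the LSL allele a Thy1.1 reporter and a stop cassette between loxP sites block Foxp3, so that Thy1.1 marks a “wannabe”, a cell that would have become a Treg cell; the rescued cells have regained Foxp3 through a tamoxifen-dependent Cre expressed from Cd4. The control Treg cells came from an allele that joins the diphtheria toxin receptor and GFP to Foxp3, and they carried the same Cre. Heterozygous females are mosaics, in which resting “wannabes” live beside wild-type Treg cells and activated “wannabes” live in mice whose other Treg cells the toxin removes. Sex, age, treatment and experiment cannot be told apart between the tables, so levels were compared within an experiment.

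Interferon-γ binds a receptor of the chains IFNGR1 and IFNGR2 and signals through the kinases JAK1 and JAK2 to genes with GAS elements, Irf1 among the first of them. IRF1 in turn binds ISRE elements in the promoters of the GTPase genes. The GTPases are known for defence inside the cell: guanylate-binding proteins and immunity-related GTPases assemble on the vacuoles of bacteria and parasites, and IRGM1 and IGTP restrain the other immunity-related GTPases on the membranes of the cell itself.

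To show which of these elements the genes carry, the promoter windows of RefSeq (GRCm38.p6, 250 bases before to 50 after a start site) were searched on both strands for an ISRE core, GAAA followed by any 2 bases and GAAA, and for GAS, TTCNNNGAA; matches of both may overlap. There were 9 windows, for 7 of the 8 members. An ISRE core stood in 6 of the 7 genes, against 3.99% of all 27025 genes with a window (3.44% of 32851 windows). GAS stood in 4 of the 7, against 9.55% of all genes (8.3% of windows). The elements nearest to the start sites are printed 5′ to 3′ on the strand of the gene, with the matched letters in capitals; where the capitals begin with TTTC the core lies on the other strand.
Gbp2, ISRE core, chr3:142620594-142620623, plus strand: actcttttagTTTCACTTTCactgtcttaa
Gbp3, ISRE core, chr3:142559995-142560024, plus strand: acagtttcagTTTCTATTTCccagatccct
Gbp5, GAS, chr3:142496872-142496901, plus strand: tggccgttatTTCTCAGAAccaagcacaga
Gbp7, ISRE core, chr3:142530273-142530302, plus strand: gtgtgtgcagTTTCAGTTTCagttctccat
Irgm1, ISRE core, chr11:48871425-48871454, minus strand: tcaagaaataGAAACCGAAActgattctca
Igtp, ISRE core, chr11:58199512-58199541, plus strand: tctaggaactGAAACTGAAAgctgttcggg
Irf1, GAS, chr11:53769914-53769943, plus strand: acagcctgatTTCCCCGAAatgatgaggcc

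Irf1 had GAS and no ISRE core in its window, whereas Gbp2, Gbp3 and Irgm1 had ISRE cores and no GAS. Gbp5, Gbp7 and Igtp had both elements. In Gbp2, Gbp3, Gbp7, Irgm1 and Igtp an ISRE core began between 59 and 24 bases before the start site (in Gbp3 and Irgm1 a pair of overlapping matches), while that of Gbp5 began 165 bases before it. In Igtp the GAS began 45 and the ISRE core 34 bases before the start. The same arrangement recurred in other immunity-related GTPase genes of chromosome 11, which are shown with Igtp for their shared letters around the GAS:
Igtp, GAS, chr11:58199501-58199530, plus strand: aactagccatTTCTAGGAActgaaactgaa
Irgm2, GAS, chr11:58214892-58214921, plus strand: aactagccatTTCCAGGAActgaaactgaa
Tgtp1, GAS, chr11:48992315-48992344, minus strand: aactagccatTTCCAGGAAtcgaaactgaa
Gm12185, GAS, chr11:48927249-48927278, minus strand: aactagccatTTCCAGGAAtagaaagtgaa

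Such a match is a description of letters and not of binding. Among 20 other genes of the guanylate-binding protein and immunity-related GTPase families, 10 had windows, of which 7 held an ISRE core and 5 held GAS.

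**Figure D1:**
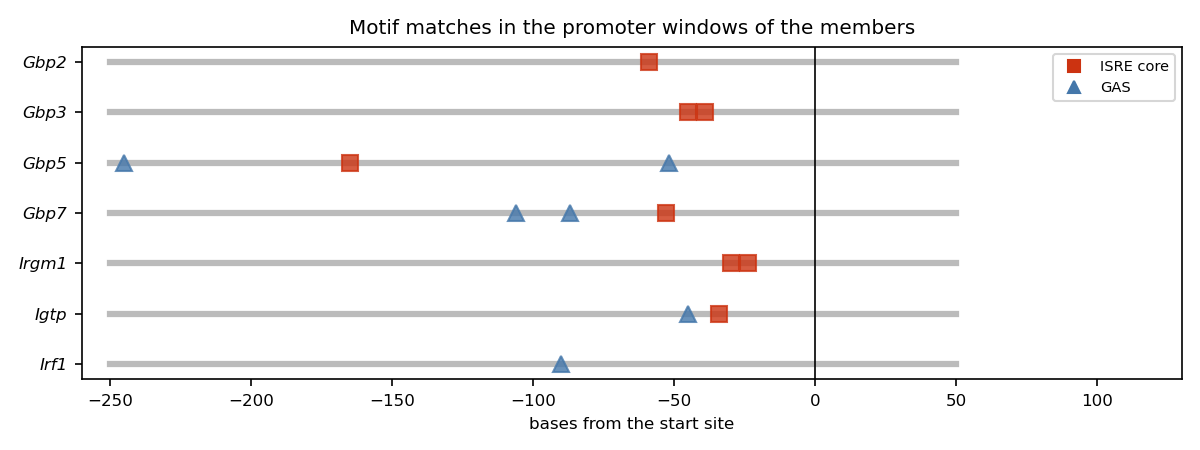
Motif matches in the promoter windows of 7 members. The x axis gives bases from the start site, grey bars the windows, squares ISRE cores and triangles GAS; the ISRE cores of Gbp2, Gbp3, Gbp7, Irgm1 and Igtp lie between 59 and 24 bases before the start site.

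Total counts lay between 25558402 and 36660933 per library. Values are given as normalised read counts, scaled to the effective library size within each experiment. Foxp3, the gene altered in all groups, had normalised counts of 28404 to 36480 in rescued Treg cells, 5466 to 8282 in control Treg cells, 2760 and 3280 in male “wannabes”, 1995 to 2224 in resting and 1570 and 1731 in activated “wannabes”, in the order the labels give for cells with and without the protein. Summed over their list, 7 markers of CD4 T cells stood between 4615 and 7029 CPM (a count scaled to the size of its library), 6 B cell markers between 9.81 and 44.2 and 10 myeloid markers between 1.59 and 14.1.

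Gbp3, Gbp7 and Igtp were listed at 0 in every library. These zeros cannot be read as absence, since H2-D1, Cox6b1 and Rpl36al, genes used by nearly every cell, were listed at 0 in all 13 libraries as well, while their relatives H2-K1, Cox6a1 and Rpl36 had at least 107635, 2568 and 1209 counts. In all, 4180 of the 24417 genes were listed at 0. By the GENCODE M21 annotation, Igtp (chromosome 11: 58199556-58207591, plus strand) shared 8.01% of its exonic bases with Irgm2 and Gbp7 (chromosome 3: 142530342-142550149, plus strand) shared 11.3% with Gm43802, while Gbp3 (chromosome 3: 142560026-142573209, plus strand) shared none. The part of such overlaps in the zeros was not tested. Among the 20 relatives, Gbp6, Tgtp1 and 9930111J21Rik1 were listed at 0 too.

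Irf1 (chromosome 11: 53770014-53778374, plus strand), which encodes the transcription factor IRF1, was expressed in every library. Its normalised counts were 12686, 20723 and 15662 in control Treg cells, 15920.1, 20239 and 18566.5 in rescued Treg cells and 14537 and 26167 in male “wannabes”. These 3 groups overlapped, and the highest single value was that of a male “wannabe” library. In the females, Irf1 stood at 12382, 10619 and 11482 in resting and at 13312 and 14664 in activated “wannabes”, which did not overlap. On 135 of its 3976 exonic bases Irf1 is overlapped by Gm17334 on the opposite strand, and the strand setting of the counting is not given in the sources used here.

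Gbp2 (chromosome 3: 142620602-142638008, plus strand), a guanylate-binding protein of the intracellular defence, had normalised counts of 3984, 8132 and 5089 in control Treg cells, 5347, 8749.5 and 7201 in rescued Treg cells and 4349.5 and 8197 in male “wannabes”. No male group stood apart from another. Resting “wannabes” had 3379.9, 4377 and 4433, and activated “wannabes” 6742 and 8494, so that the lowest activated library was above the highest resting one.

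Gbp5 (chromosome 3: 142493978-142522344, plus strand), a guanylate-binding protein known for its role in inflammasome responses, was the least abundant of the members with reads. It had normalised counts of 209.8, 394 and 269.5 in control Treg cells, 170.2, 306 and 296 in rescued Treg cells and 205 and 325 in male “wannabes”, again with full overlap. Resting “wannabes” had 65.2, 72.2 and 72.6 and activated “wannabes” 87.1 and 98.5. All 5 female libraries thus stood below all 8 male ones, in tables normalised separately and for animals of other sex, age and treatment.

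Irgm1 (chromosome 11: 48861968-48871683, minus strand), a regulatory member of the immunity-related GTPases, had normalised counts of 6913, 12779.6 and 10086 in control Treg cells, 7413, 12264 and 9726 in rescued Treg cells and 7584 and 9656 in male “wannabes”. In resting “wannabes” it had 6924, 9003 and 7983 and in activated “wannabes” 8777 and 10837. Both experiments showed overlapping groups, and Irgm1 was the only member whose female groups overlapped.

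Iigp1 (chromosome 18: 60376027-60392634, plus strand), an effector immunity-related GTPase that coats parasite vacuoles, varied more than the other members within control and within rescued Treg cells. It had normalised counts of 2509.8, 7856 and 6511 in control Treg cells, 7673, 16202.5 and 11069 in rescued Treg cells and 5704 and 7206.5 in male “wannabes”. Every rescued library was above both male “wannabe” libraries, while the lowest rescued library lay just under the highest control library. Resting “wannabes” had 4010.2, 5981 and 5293, all below the 7586 and 11041 of activated “wannabes”.

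**Figure D2:**
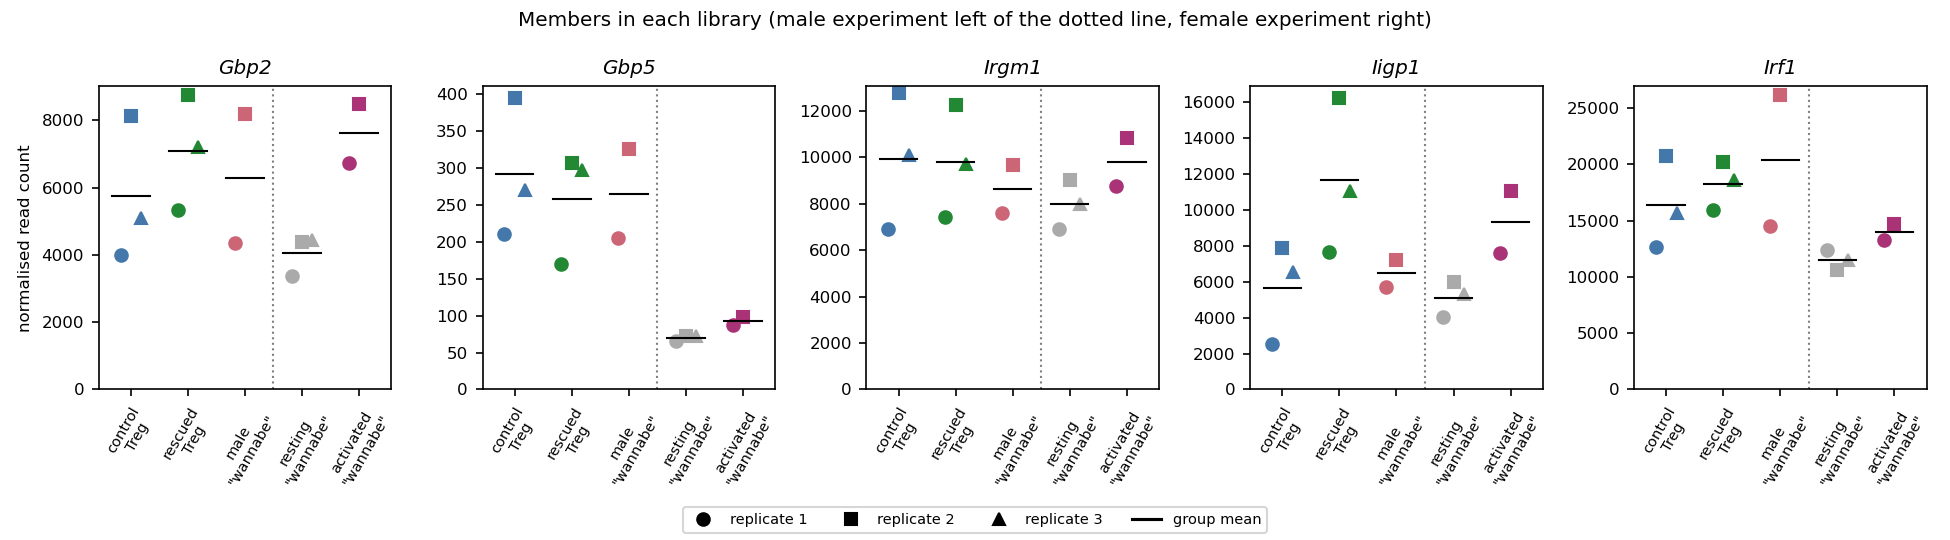
Normalised read counts (y axis, from 0) of the 5 members with reads in each of the 13 libraries, by group; marker shapes give the replicate number, bars the group mean. Activated “wannabes” lie above resting “wannabes” without overlap for Gbp2, Gbp5, Iigp1 and Irf1.

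Per kilobase of exonic length, Irf1 had the highest mean level in all 5 groups and Gbp5 the lowest. In control Treg cells the normalised counts per kilobase ranged from 3191 to 5212 for Irf1, 1583 to 3232 for Gbp2, 1190 to 2199.6 for Irgm1 and 431 to 1349 for Iigp1, so that neighbours in this order overlapped, and from 31.6 to 59.4 for Gbp5, which did not overlap Iigp1. Rescued Treg cells were the only group in which Iigp1 had a higher mean than Irgm1, 2000.3 against 1687 per kilobase, but the ranges of both genes overlapped there. In activated “wannabes” Gbp2, at 2679.6 and 3376 per kilobase, reached the level of Irf1, at 3348 and 3688, which in resting “wannabes” stood apart from it (1343 to 1762 against 2671 to 3114).

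The members varied together between libraries of the same group. In control Treg cells and in rescued Treg cells, replicate 1 was the lowest and replicate 2 the highest library for all 5 members, and in male “wannabes” replicate 2 was above replicate 1 for all 5. This arrangement in all 3 male groups was seen in 5 of 5 members and in 1.48% of the 14925 genes tested, and it was looked for after the values had been seen. It was found in 4 of 17 relatives tested, in 4 of 26 antiviral type I interferon targets and in 3 of 19 other interferon-γ targets. In control Treg cells alone, where replicate 1 was lowest and replicate 2 highest in 16.9% of genes, this held for 22 of the 26 antiviral targets and 12 of the 19 interferon-γ targets. The highest library exceeded the lowest by 1.63 times (Irf1) to 3.13 times (Iigp1) in control Treg cells, against a median of 1.33 times over 10787 genes with a mean normalised count over 100. In rescued Treg cells the same ratio was 1.27 (Irf1) to 2.11 (Iigp1), against a median of 1.39, and in male “wannabes” 1.26 (Iigp1) to 1.88 (Gbp2), against 1.35, so that Irf1 in the former and Iigp1 and Irgm1 in the latter lay below the median. In activated “wannabes” replicate 2 was above replicate 1 for all 5 members, by 1.1 to 1.46 times, against a median of 1.08. Resting “wannabes” showed no common arrangement, since Irf1 was highest in replicate 1, where the 4 GTPases were lowest.

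**Figure D3:**
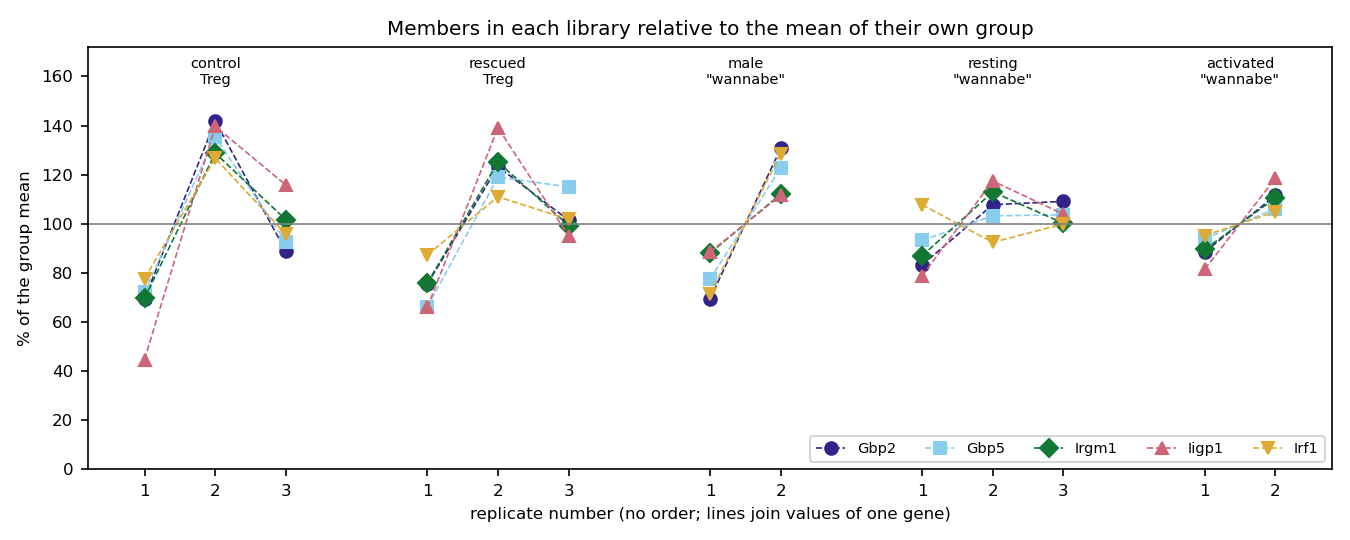
Each member in each library as a percentage of the mean of its own group (y axis), with replicate numbers on the x axis; the dashed lines join values of 1 gene and show no order. In all 3 male groups the 5 genes share their lowest and highest libraries.

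Whether the members differ between Treg “wannabes” in the presence and absence of functional Treg cells was asked in the females. The members with reads were all higher on average in activated than in resting “wannabes”. Gbp2 rose from 4064 ± 593 (SD, n = 3) to 7618 ± 1239 (SD, n = 2) normalised counts, with a log2 fold change of 0.90 ± 0.15 (SE; edgeR adjusted p = 0.00944). Iigp1 rose from 5095 ± 1000.1 (SD, n = 3) to 9314 ± 2443 (SD, n = 2), with a log2 fold change of 0.87 ± 0.21 (SE; edgeR adjusted p = 0.0298). Irf1 did not pass the test, at 0.28 ± 0.09 (95% confidence interval 0.06 to 0.50; edgeR adjusted p = 0.0719), although DESeq2 called it (adjusted p = 0.0422), as it did Gbp2 and Iigp1. Neither did Gbp5, with a log2 fold change of 0.40 and an interval of -0.23 to 1.03 (edgeR adjusted p = 0.31), nor Irgm1, with 0.29 and an interval of -0.04 to 0.63 (edgeR adjusted p = 0.169). Thus 2 of 5 members were called higher, where 11.3% of 13166 genes tested were, 3 of 5 had an unadjusted p under 0.05, as 38.1% of all genes had, and 4 of 5 had higher groups without overlap, where 28.2% of all genes had. The median log2 fold change of the 5 members was 0.40 and all 5 lay above 0, as 49.4% of all genes did. Without activated replicate 2 the log2 fold change of Gbp2 was 0.72 (edgeR adjusted p = 0.0839) and that of Iigp1 was 0.56 (edgeR adjusted p = 0.199), and neither was called; without resting replicate 3 Iigp1, at 0.89, was not called either (edgeR adjusted p = 0.0559).

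Marker sums moved with this comparison. The 7 CD4 T cell markers summed to 5309 and 5526 CPM in activated and 5888 to 6330 CPM in resting “wannabes”. Erythroid markers summed to 1.80 and 1.91 against 0.992 to 18.4 CPM, with overlap. The sums of 4 other lists were higher in both activated libraries. The 6 B cell markers summed to 22.7 and 24.9 CPM in activated and 9.81 to 12.4 CPM in resting “wannabes”, the 6 dendritic cell markers to 6.76 and 8.05 against 3.30 to 4.39 CPM, the 10 myeloid markers to 5.77 and 10.04 against 1.59 to 5.69 CPM and the 6 markers of CD8 T and NK cells to 24.4 and 26.3 against 16.8 to 22.3 CPM. Of the B cell sum, Cd79b gave 688 and 631 counts in activated and 215 to 256 in resting libraries, whereas Ms4a1 had 1 and 4 counts in activated and 5 to 12 in resting libraries. Clec9a was at 0 in all 5 libraries, Cd14, S100a8 and S100a9 were at 0 in both activated libraries, and Itgax had 26 counts in activated replicate 1 and 0 in the other 4. Cd79b had a log2 fold change of 1.34 (edgeR adjusted p = 0.00193), and no other marker of these 4 lists was called. Cd79a, the other B cell marker tested, stood at -0.008, the 4 myeloid markers tested (Lyz2, Csf1r, Itgam and Cd68) at 0.63 to 1.25, the 2 dendritic cell markers (Xcr1 and Zbtb46) at 0.93 and 1.13 and the 4 of CD8 T and NK cells (Cd8b1, Klrb1c, Klrd1 and Eomes) at 0.03 to 0.50. The part of such cells in the rise of Gbp2 and Iigp1 was not tested. In sorted bulk samples, a larger share of cells with a transcript and more of it per cell cannot be told apart.

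In the males, rescued Treg cells were compared with control Treg cells, to ask how cells with restored Foxp3 differ from Treg cells of healthy mice. None of the 5 members passed the edgeR test, where 2.3% of 14925 genes did. Iigp1 had means of 11648 ± 4294 and 5626 ± 2781 normalised counts (SD, n = 3 each). Its log2 fold change was 1.05 ± 0.37 (SE; 95% confidence interval 0.24 to 1.86; edgeR adjusted p = 0.183). It was the only member with an unadjusted p under 0.05, as 16.1% of all genes had, and the only one called by DESeq2 (adjusted p = 0.0313). Beside this, the 6 dendritic cell markers summed to 2.17 to 3.73 CPM in rescued and 0.893 to 1.92 CPM in control Treg cells, while the sums of B cell, myeloid, and CD8 T and NK markers overlapped. All 6 CD8 T and NK markers had log2 fold changes above 0, with a median of 2.09. Of these, 3 had an unadjusted edgeR p under 0.05, as 16.1% of all genes had, and 0 were called. Cd68, 1 of the myeloid markers, had 7.49 to 22.8 normalised counts in control and 100.8 to 168.4 in rescued Treg cells, and was called by DESeq2 (adjusted p = 0.00433) but not by edgeR (adjusted p = 0.0887). Of the 7 myeloid markers tested, 5 lay above 0 and 2 below, Itgam and Fcgr3 (DESeq2 log2 fold changes of -1.28 and -0.63). The part of such cells in the result was not tested. Without control replicate 1, its lowest library, the log2 fold change of Iigp1 was 0.70, and it was 1.37 without control replicate 2. The other 4 members had log2 fold changes between -0.18 (Gbp5) and 0.31 (Gbp2), and their 95% confidence intervals ran from -0.35 to 0.96 for Gbp2, -1.03 to 0.67 for Gbp5, -0.54 to 0.50 for Irgm1 and -0.35 to 0.66 for Irf1. Replicates of the male experiment varied more, with a biological coefficient of variation over all genes of 0.51 against 0.171 in the females.

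Control Treg cells and male “wannabes”, the latter from sick mice, did not differ detectably in any member. Log2 fold changes lay between -0.31 (Irf1) and 0.21 (Irgm1), with adjusted p-values of 0.436 to 0.864 by edgeR, while 16.2% of all genes were called. Rescued Treg cells and male “wannabes” came from mice with the same Foxp3LSL allele, with and without the Cre, and again no member was called, where 14.1% of genes were. Iigp1 was 0.85 ± 0.42 higher on the log2 scale in rescued Treg cells (95% confidence interval -0.07 to 1.77; edgeR adjusted p = 0.212), without overlap, as in 21.9% of all genes. The other 4 members lay between -0.16 (Irf1) and 0.19 (Irgm1). In both comparisons 0 of 5 members had an unadjusted edgeR p under 0.05, as 31.2% and 28% of all genes had, and 0 were called by DESeq2. These comparisons share their libraries with each other and with that of rescued and control Treg cells.

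The difference of rescued from control Treg cells was set against that from resting to activated “wannabes” in a contrast over all 13 libraries. By edgeR 0 of 5 members were called, 0 had an unadjusted p under 0.05 and DESeq2 called 0, where edgeR called 1.53% of 15201 genes and 13.8% had an unadjusted p under 0.05. The difference was -0.58 for Gbp2 (95% confidence interval -1.50 to 0.33), -0.57 for Gbp5 (-1.66 to 0.53), -0.30 for Irgm1 (-1.03 to 0.43), 0.20 for Iigp1 (-0.96 to 1.35) and -0.11 for Irf1 (-0.79 to 0.57). The calls in the females and their lack in the males therefore do not show that the experiments differed in these genes.

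**Figure D4:**
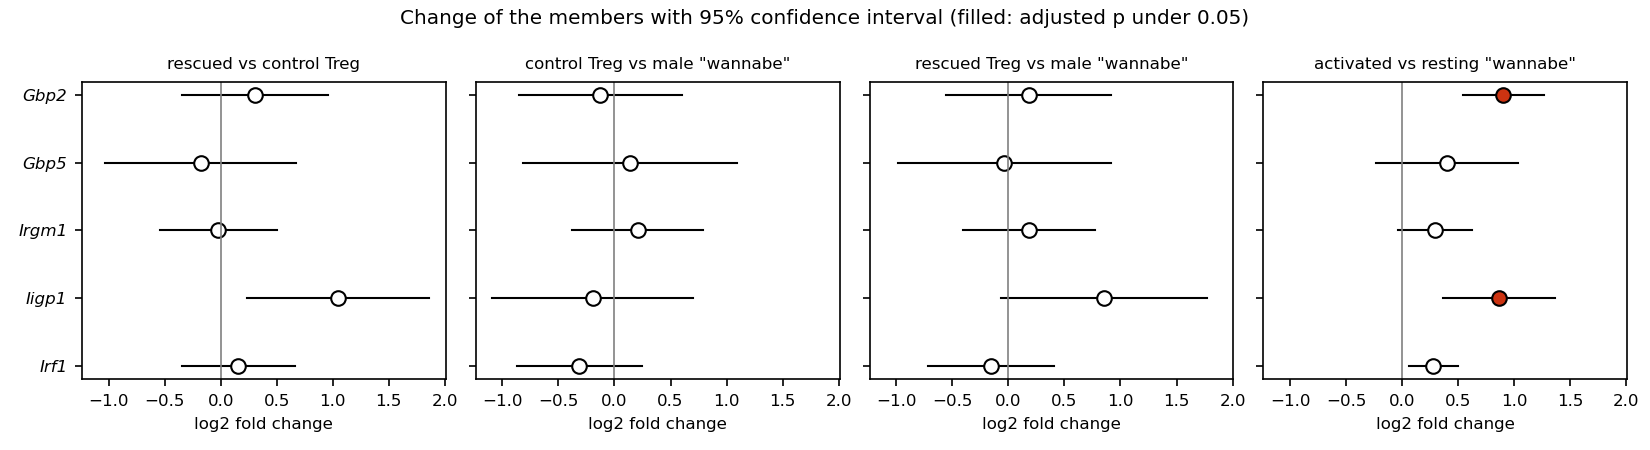
Log2 fold change (x axis) of the 5 members with reads in 4 comparisons; points are edgeR estimates, lines 95% confidence intervals and filled points have an adjusted p under 0.05. Gbp2 (0.90) and Iigp1 (0.87) in activated against resting “wannabes” are filled, and intervals in the male experiment are wider.

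Of the 20 relatives in the guanylate-binding protein and immunity-related GTPase families, 17 were tested. In activated “wannabes” 5 of them rose and 4 fell (1 and 2 without activated replicate 2, and 3 rises without activated replicate 1), where 22.5% of all genes were called in either direction, with a median log2 fold change of -0.003 over the 17 against all 5 members above 0. Those with the largest changes were Gbp2b, which fell by 1.93 ± 0.15 on the log2 scale (edgeR adjusted p = 0.000644), and Gm4951, Gbp11 and F830016B08Rik, which rose by 1.54 ± 0.24, 1.29 ± 0.15 and 1.06 ± 0.19 (edgeR adjusted p = 0.0068, 0.00268 and 0.0119). Gbp2b is the neighbour of Gbp2 on chromosome 3, and the pair moved in opposite directions. Its normalised counts were 2008, 2408 and 2693 in resting and 635 and 609 in activated “wannabes”, and 2.03% of the 50-base windows of Gbp2 transcripts also occur in Gbp2b. The call of Gm4951 did not hold without activated replicate 2 (log2 fold change 1.2), nor that of F830016B08Rik without either activated library (0.92 to 1.25 over the 5 fits that left out 1 library). Gbp11 is annotated as a polymorphic pseudogene.

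The family genes were also grouped by chromosome, after their values had been seen. Iigp1, Gm4951 and F830016B08Rik lie together on chromosome 18 (60212080-60392634), and all 3 were called higher in activated “wannabes”, with log2 fold changes of 0.87 to 1.54. Of the 8 tested genes on chromosome 11, Irf1 and immunity-related GTPases, 1 was called higher and 3 lower in the same comparison, of 5 on chromosome 5, 2 were called higher, of 3 on chromosome 3, 1 was called higher and 1 lower, and of 3 on chromosome 7, none was called. In rescued against control Treg cells, the 3 genes of chromosome 18 had log2 fold changes of 1.05 to 3.06, while the 8 on chromosome 11 lay between -0.67 and 0.16, the 3 tested on chromosome 3 between -0.41 and 0.31, the 5 tested on chromosome 5 between -0.53 and 0.33 and the 3 on chromosome 7 between -0.23 and 1.01, the last close to the 1.05 of Iigp1.

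F830016B08Rik had normalised counts of 37.5, 119 and 135 in control Treg cells and of 312, 1052 and 1076.5 in rescued Treg cells. It rose by 3.06 ± 0.56 on the log2 scale (edgeR adjusted p = 0.0184), with no overlap. Gm4951 had 118, 271 and 293 in control and 452, 1206 and 1506 in rescued Treg cells, and rose by 2.21 ± 0.46 (edgeR adjusted p = 0.0296). They were the only 2 of 17 relatives called in this comparison, where 2.3% of all genes were called. Each call was lost in 5 of the 8 fits that left out 1 library, without any of the 3 control libraries or without rescued replicate 2 or 3. The log2 fold changes of the 2 genes stayed at 1.86 to 3.45. Both were also higher in male “wannabes” than in control Treg cells. F830016B08Rik had 448 and 427 normalised counts there and was lower in control Treg cells by a log2 fold change of -2.16 (edgeR adjusted p = 0.0264), and Gm4951 had 882 and 919.7 and a log2 fold change of -1.98 (edgeR adjusted p = 0.0184). Their calls were lost without control replicate 1, and that of F830016B08Rik also without control replicate 2 or either male “wannabe” library. Control Treg cells thus had the lowest level of both genes among the male groups. The 6 dendritic cell markers also stood without overlap in these groups, at 4.21 to 7.35 CPM in male “wannabes”, 2.17 to 3.73 in rescued and 0.893 to 1.92 in control Treg cells. Cd68 had 30.05 and 187 normalised counts in male “wannabes”, above all control libraries (DESeq2 adjusted p = 0.0155 and edgeR adjusted p = 0.0595). Of the 7 myeloid markers tested, 4 were lower and 3 higher in control Treg cells than in male “wannabes”. Itgam was among the higher, by a DESeq2 log2 fold change of 4.00 (DESeq2 adjusted p = 0.000202). Klrb1c, an NK cell marker, had 151 and 225 normalised counts in male “wannabes” against 13.7 to 43.5 in control Treg cells (edgeR adjusted p = 0.0263). The part of these markers in these results, and in those of Gbp11 and Casp1 against male “wannabes”, was not tested. Of the 50-base windows of Iigp1 transcripts, 1.69% occur in another gene, most often in Gm4951.

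**Figure D5:**
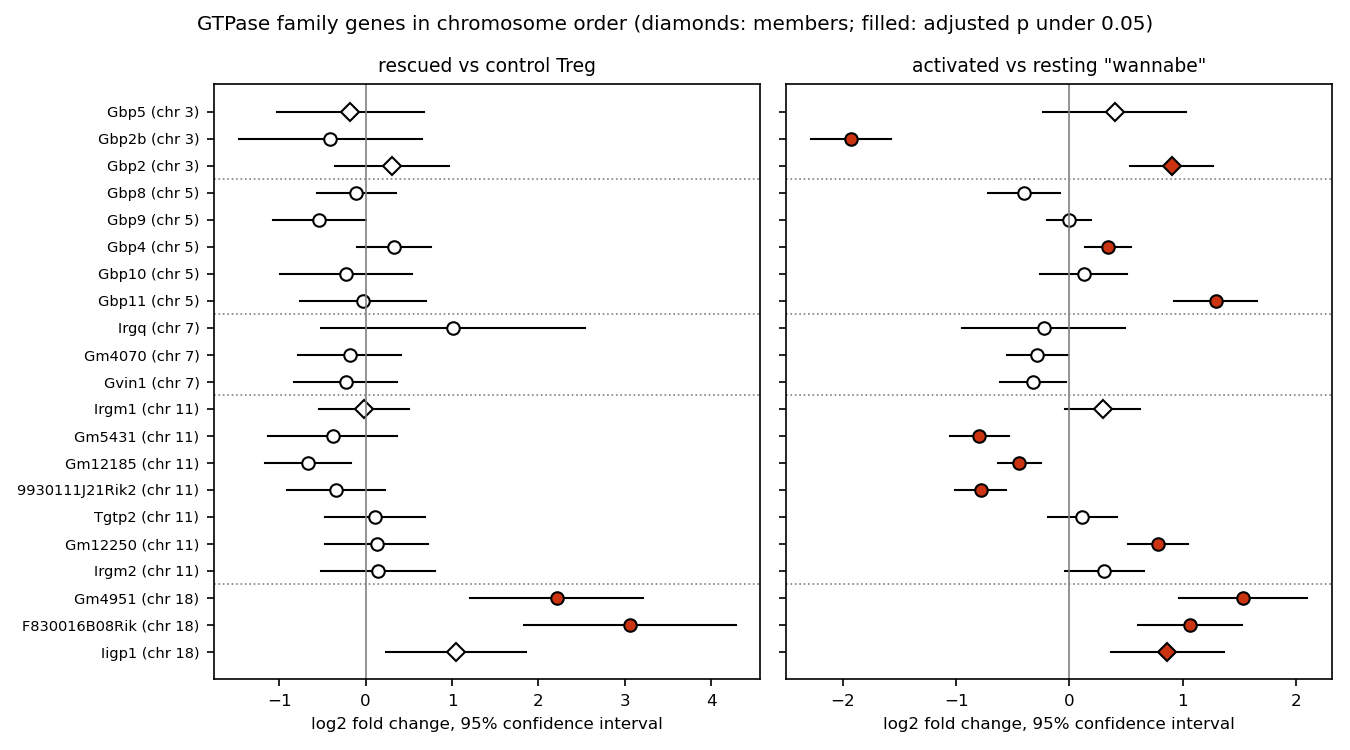
Log2 fold change with 95% confidence interval (x axis) of 21 GTPase family genes in chromosome order, in rescued against control Treg cells and in activated against resting “wannabes”; diamonds are members and filled symbols have an edgeR adjusted p under 0.05. The 3 genes of chromosome 18 lie to the right of 0 in both panels.

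Against male “wannabes”, 3 relatives were higher in control Treg cells and 3 lower, where 16.2% of all genes were called in either direction. Without any 1 of the control libraries 1 was called higher, and without male “wannabe” replicate 2, 0 were; 0 were called lower without control replicate 1 and 1 without male “wannabe” replicate 2. Gbp11 was lower in control Treg cells by a log2 fold change of -1.36 ± 0.37 (edgeR adjusted p = 0.0275) and in rescued Treg cells by -1.39 ± 0.37 (edgeR adjusted p = 0.0271), where it was the only relative called. It had 821 and 1040 normalised counts in male “wannabes”, 263 to 531 in control and 270.4 to 398 in rescued Treg cells. Neither call held without male “wannabe” replicate 2; that against control Treg cells was also lost without control replicate 1 or 3, and that against rescued Treg cells without any rescued library. Gm12185 was higher in control Treg cells than in male “wannabes” by 1.20 ± 0.26 (edgeR adjusted p = 0.0107), a call that was lost without male “wannabe” replicate 2. Counts of Gbp10, Tgtp2, Gvin1, Gm4070, 9930111J21Rik2 and Gm5431 are uncertain, since 37.3% to 99.2% of the 50-base windows of their transcripts occur in another gene. In the contrast between the experiments edgeR called 0 of 17 relatives, with 3 at an unadjusted p under 0.05 and 1 called by DESeq2. Of all genes, edgeR called 1.53% there and 13.8% had an unadjusted p under 0.05.

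The ligand, its receptor and the signalling genes were followed in a list of 13. Ifng itself had 295, 216 and 118 normalised counts in resting and 525 and 385 in activated “wannabes”. These groups did not overlap, but its log2 fold change of 1.11 ± 0.36 did not pass the test (edgeR adjusted p = 0.0711), while DESeq2 called it (adjusted p = 0.0185). In the males Ifng had 103, 184 and 50.1 in control Treg cells, 359, 561 and 285 in rescued Treg cells and 223 and 291 in male “wannabes”. All rescued libraries were above all control libraries, with a log2 fold change of 1.84 ± 0.49 that also did not pass the test (edgeR adjusted p = 0.0845), while DESeq2 called it (adjusted p = 0.00801). The RNA was taken from the sorted samples, so Ifng made by cells outside them is not measured by it. Transcripts of other cells within the samples are counted. The 6 markers of CD8 T and NK cells summed to 24.4 and 26.3 CPM in activated against 16.8 to 22.3 CPM in resting “wannabes”. In rescued and control Treg cells they summed to 21.6 to 28.3 and 13.8 to 26.0 CPM. The part of such cells in the counts of Ifng was not tested.

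Of the 13 genes, edgeR called 5 higher and none lower in activated “wannabes”, where 22.5% of all genes were called in either direction. DESeq2 called 7, among them Ifng, and Pias1 as lower (adjusted p = 0.0343). Ifngr1, a chain of the receptor, rose by 0.85 ± 0.11 on the log2 scale (edgeR adjusted p = 0.00312), Jak2 by 0.96 ± 0.22 (edgeR adjusted p = 0.0257) and Socs1 and Socs3, inhibitors of the same pathway, by 0.86 ± 0.18 and 0.39 ± 0.07 (edgeR adjusted p = 0.0197 and 0.0134). Without activated replicate 1, 2 of the 13 genes were called, and without activated replicate 2, 1 was. Among Ifngr1, Jak2, Socs1 and Socs3, the call of Ifngr1 alone held in all 5 fits that left out 1 library. In rescued against control Treg cells, edgeR called 0 of the 13, with 4 at an unadjusted p under 0.05, and DESeq2 called Ifng alone. Of all genes, edgeR called 2.3% there and 16.1% had an unadjusted p under 0.05.

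Against male “wannabes”, rescued Treg cells had 5 genes of this list higher and 1 lower, where 14.1% of all genes were called in either direction. The list had 3 higher without control replicate 1 or 3 or rescued replicate 2 or 3, and the count also fell without male “wannabe” replicate 1. Socs1 was higher by 2.96 ± 0.58 (edgeR adjusted p = 0.00628), Socs3 by 1.56 ± 0.36 (edgeR adjusted p = 0.014) and Jak1 by 1.38 ± 0.16 (edgeR adjusted p = 4e-04), and Jak2 was lower, with a log2 fold change of -0.79 ± 0.22 (edgeR adjusted p = 0.0348) that was not called in 5 of the 8 fits that left out 1 library (range -0.99 to -0.61; not called without control replicate 1 or 3, rescued replicate 1 or 2, or male “wannabe” replicate 1). Control Treg cells had Socs1 and Jak1 higher than male “wannabes”, by 2.36 ± 0.57 and 1.24 ± 0.16 (edgeR adjusted p = 0.0168 and 0.00105); the call of Socs1 was lost without control replicate 2 or male “wannabe” replicate 1, and 5 genes of the list were called higher without male “wannabe” replicate 2.

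Of 25 other known targets of interferon-γ 19 were tested, of which edgeR called 13 higher and none lower in activated “wannabes” (DESeq2 14 in all), where 11.3% of all genes rose. The median log2 fold change of the 19 was 0.49, and the 13 include Socs1, which the signalling list also holds. Cxcl10, a chemokine, rose by 2.11 ± 0.35 (edgeR adjusted p = 0.00917), Casp4, an inflammatory caspase, by 1.44 ± 0.20 (edgeR adjusted p = 0.00461) and Psmb9, a subunit of the immunoproteasome, by 0.81 ± 0.08 (edgeR adjusted p = 0.00136). Without activated replicate 1, 4 genes of the list were called higher, and without activated replicate 2, 3 were. The call of Cxcl10 was lost without either activated library. In rescued against control Treg cells edgeR called 1 of the 19 higher and none lower, where it called 2.3% of all genes. DESeq2 also called Casp4 higher (adjusted p = 0.0215). The gene called by edgeR was Casp1, the caspase that matures interleukin-1β, with 425 to 604 normalised counts in control and 1836 to 2186 in rescued Treg cells (log2 fold change 1.89 ± 0.22; edgeR adjusted p = 0.00277). It was also lower in control Treg cells than in male “wannabes”, by a log2 fold change of -1.76 ± 0.24 (edgeR adjusted p = 0.0012).

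Of the 9 genes of the IRF family, Irf1 included, edgeR called 3 lower and none higher in activated “wannabes”, where 22.5% of all genes were called in either direction. DESeq2 also called Irf1 and Irf8 higher there. Of the 3, 1 was called without resting replicate 1 or 3 and 0 without either activated library. Irf4, a factor of T cell activation, fell by 1.02 ± 0.19 on the log2 scale (edgeR adjusted p = 0.0136). Between rescued and control Treg cells, where edgeR called 2.3% of all genes, DESeq2 called Irf8 higher (adjusted p = 0.0232) and Irf9 lower (adjusted p = 0.0149). Irf7, an amplifier of the type I interferon response, was the only family gene called there by edgeR. It had 6518, 18991 and 9438 normalised counts in control Treg cells, against 2978, 3421 and 4412 in rescued Treg cells, and fell by 1.69 ± 0.36 (edgeR adjusted p = 0.0339), a call that was lost in 5 of the 8 fits that left out 1 library, at values of -1.98 to -1.15 over all 8 (lost without control replicate 2 or 3 or any rescued library).

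Of 26 antiviral targets of type I interferon, edgeR called 12 lower and none higher in rescued against control Treg cells and 14 did not pass the test (DESeq2 called 16), where 0.864% of all genes fell, all 26 had a log2 fold change below 0 and their median was -1.72, where the members' median was 0.16. The largest falls were those of Oasl1 and Mx2. Mx2, an antiviral GTPase of another family, had 280.4, 1265 and 517 normalised counts in control Treg cells and 51.1, 49.1 and 27.6 in rescued Treg cells, and fell by 4.01 ± 0.57 (edgeR adjusted p = 0.00684). Oasl1 had 327.5, 2420 and 550.4 against 64.3, 36.2 and 60.7, and fell by 4.35 ± 0.73 (edgeR adjusted p = 0.016), a call that was lost without any 1 of the rescued libraries. The number of antiviral targets called lower was 7 without control replicate 2, 6 without rescued replicate 1 and 5 without rescued replicate 2 or 3. The same list held 12 genes higher and none lower in control Treg cells than in male “wannabes”, where 16.2% of all genes were called in either direction. This count was 6 without control replicate 2, and it also fell without either male “wannabe” library. In activated “wannabes” 3 of the 26 were higher and none lower, near the share of all genes that rose there, 11.3%. That count was 14 without resting replicate 2, and it fell without either activated library. The 4 type I interferon genes looked up, Ifnb1, Ifna1, Ifna2 and Ifna4, were listed at 0.

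Among 10236 other genes with a mean normalised count over 100 in both experiments, Arpc5, Piezo1, Inf2 and Itm2c were among the 5 whose pattern over the groups was nearest to the median of the members. Likeness was the root mean square difference of mean log2 CPM, centred within each experiment, and was 0.0372 for Arpc5, 0.0382 for Piezo1, 0.0407 for Inf2 and 0.0423 for Itm2c. The members themselves differed more from their own median, by 0.0813 (Irf1), 0.106 (Irgm1), 0.127 (Gbp5), 0.173 (Gbp2) and 0.343 (Iigp1).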

How the data were processed

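Bulk RNA-seq libraries of 5 sorted populations were used, grouped by their labels. The authors prepared libraries with the SMART-Seq v4 and KAPA Hyper Prep kits, used STAR (version 2.7.3a) with GRCm38, GATK for realignment and R for counting; the deposited values are raw counts by gene. The annotation and the treatment of overlapping genes and of strand are not given in the sources used here. Of the counts, 0.00353% to 0.00841% lay in rows without a gene name, which were left out.

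Counts were tested in R 4.3.3 with edgeR 4.0.16 (TMM, filterByExpr, quasi-likelihood F test, Benjamini-Hochberg adjustment over all genes tested, threshold 0.05), in 1 fit of 8 male and 1 of 5 female libraries, and in a contrast over all 13. Alternatives were DESeq2 1.42.0, its size factors, other filters on low counts, the replicate number as a block, only the groups compared, and leaving out each library. The scripts were tested on simulated data. By the study's methods the female cells came from 3 mice (resting) and 2 mice (activated), as many as there are libraries (titles, genotypes and table columns give the same numbers, the series' design text the reverse), and the male libraries were biological replicates; the labels do not tie a library to an animal. A count of 0 allows up to 3 counts, which is 8.18e-06% to 1.17e-05% of a library, for counting error only.

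The members and all gene lists were chosen with earlier results of these data known. All 8 members are named. Some genes of the lists are not reported here. Of other lists, genes called by edgeR with a mean normalised count over 20 are named, up to 4 per list and comparison, by size of change; Ifng, the type I interferon genes and those of the marker lists were named outside this rule, after their values were seen. Coordinates, lengths and overlaps are from GENCODE M21 (GRCm38), to which 23651 of 24417 genes matched by symbol, and promoter sequences from RefSeq. Normalised counts per kilobase use the exonic length. CPM values were log2-transformed with a prior count of 2.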

Additional observations from a re-analysis of the deposited data

Results flagged for a closer look

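The contrast of the change from control to rescued Treg cells with that from resting to activated “wannabes” called no member, but did call genes of the antiviral type I interferon list, all lower. By edgeR the difference was -4.50 on the log2 scale for Oasl2 (adjusted p = 0.0123), -4.31 for Ifit3b (adjusted p = 0.0457), -4.05 for Rsad2 (adjusted p = 0.0413), -4.02 for Ifit3 (adjusted p = 0.0471), -3.93 for Oasl1 (adjusted p = 0.0457), -3.79 for Oas2 (adjusted p = 0.0471) and -3.55 for Mx2 (adjusted p = 0.0362). In all, 11 of the 26 genes of the list were called lower and none higher, where 1.53% of all genes were called in either direction. The count was 0 without activated replicate 2, 1 without activated replicate 1 or resting replicate 1 and 2 without resting replicate 3, and 4 to 6 without control replicate 2 or 3 or any 1 of the rescued libraries. Foxp3 also differed, by 2.55 (edgeR adjusted p = 0.000638). Its log2 fold change was 2.18 in rescued against control Treg cells, which carry different Foxp3 alleles, and -0.35 in activated against resting “wannabes”. The cause of this difference was not tested. Groups of 2 or 3 libraries are too small for a search for outlying samples.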

How the results depend on the processing

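With edgeR's quasi-likelihood test and Benjamini-Hochberg adjustment, the calls of Gbp2 and Iigp1 in activated “wannabes” held in the 5 alternatives other than leaving out a library, and the number of members called there was 0 to 2 when 1 library was left out (0 without activated replicate 2, 1 without resting replicate 3); in the other 4 comparisons it was 0 in each such fit. Between rescued and control Treg cells DESeq2 called 1 member and the replicate block 1, in both cases Iigp1 (log2 fold changes of 1.07 and 1.12; adjusted p = 0.0313 and 0.0321). Over all genes the correlations of deviations were -0.03 to 0.08 for libraries of the same replicate number, and not every library correlated best with its own number, so the numbers were not taken as pairs, although the 5 members shared their lowest and highest numbers in the male groups. All genes called there numbered 343, against 1096 with DESeq2, 612 with no filter and 580 with only both groups fitted; in the contrast over all 13 libraries they numbered 233, against 770 with DESeq2. Leaving out 1 library gave 114 to 598 genes for rescued against control Treg cells, 1549 to 2423 for control Treg cells against male “wannabes”, 1570 to 1959 for rescued Treg cells against male “wannabes”, 751 to 3215 for activated against resting “wannabes” and 44 to 430 for the contrast. Signs of uncalled members turned when 1 library was left out. For rescued against control Treg cells Gbp5 ranged from -0.37 to 0.10 and Irgm1 from -0.22 to 0.21. For control Treg cells against male “wannabes” Gbp2 ranged from -0.52 to 0.35, Gbp5 from -0.16 to 0.46, Irgm1 from -0.0172 to 0.41, Iigp1 from -0.51 to 0.16 and Irf1 from -0.68 to 0.12. For rescued Treg cells against male “wannabes” Gbp2 ranged from -0.21 to 0.66, Gbp5 from -0.34 to 0.28 and Irf1 from -0.52 to 0.28, and in the contrast Iigp1 ranged from -0.16 to 0.55 and Irf1 from -0.26 to 0.13. With genes over a mean normalised count of 100, Irgm1 was 0.0398 for rescued against control Treg cells and Gbp5 0.0284 for rescued Treg cells against male “wannabes”; Gbp5 was not tested in the females under that filter. The cause of these moves was not tested. Of the member values, 322 kept direction and side of the threshold, 21 turned, 3 became called and 3 lost their call. Leaving out an activated or male “wannabe” library left a group of 1, assumed to vary like the other groups.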
